A study of Xenopus laevis with 3 samples.

Results

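Counts of the miR-30 family of microRNAs were examined in Xenopus laevis larvae, in dissected tissue of the accessory olfactory bulb, which receives the axons of vomeronasal sensory neurons. The members were taken by name, as the Xenopus entries of the deposited table called miR-30 with any letter and arm, and 6 of 1272 entries met that rule, or 6 of 178 Xenopus entries. All 6 carry X. tropicalis names. The 9 X. laevis and 3 X. borealis entries of the table include no miR-30, so the values are reads of X. laevis tissue listed under X. tropicalis sequences. The family was chosen by the measured ratios against the sibling library, in which miR-30a-5p and miR-30c had opposite directions, so every value against sibling given here is a description of these libraries and no independent evidence.

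The libraries came from larvae raised as orphans, with non-siblings or with siblings, as the labels name these conditions, with 1 library for each (n = 1). All larvae were at stage 45 and 15 days old, and no genotype, strain or agent is given for any of them. The figure of 15 larvae in the labels is not tied to a library, so the number of animals behind each library is unstated. The labels give no details of rearing. With 1 library per condition there is no replicate spread and no test between conditions.

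microRNAs guide Argonaute proteins to messenger RNAs, mainly through bases 2 to 8, the seed. The miR-30 family is widely expressed in vertebrates and prominent in kidney epithelium. In Xenopus embryos miR-30a-5p is needed for development of the pronephros, the larval kidney, where it acts on Lhx1. In rodent and human cells miR-30a-5p is known to target the messenger RNA of brain-derived neurotrophic factor. The members come from several precursor genes, and the 5p strand is usually the one retained. In mammals a miR-30c gene lies beside miR-30e, another lies near miR-30a, and miR-30b neighbours miR-30d.

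The 6 sequences are shown because the members with 1 seed differed in how they were distributed over the libraries. They are given 5′ to 3′ with the seed in capitals.
xtr-miR-30a-5p: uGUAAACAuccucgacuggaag
xtr-miR-30e: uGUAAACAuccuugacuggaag
xtr-miR-30d: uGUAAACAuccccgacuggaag
xtr-miR-30b: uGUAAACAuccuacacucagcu
xtr-miR-30c: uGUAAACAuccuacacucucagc
xtr-miR-30a-3p: cUUUCAGUcagauguuugcagc

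The 5 members of the 5p arm shared their first 11 bases, and with them the seed. Beyond base 11 they fell into a miR-30a, miR-30d and miR-30e set with the same last 9 bases, and a miR-30b and miR-30c set with the same first 18 bases. Counted from 1 at the 5′ end, miR-30e differed from miR-30a-5p by C13U alone, and miR-30d from miR-30a-5p by U12C alone. From miR-30a-5p to miR-30c there were 5 substitutions in the 22 bases compared, namely C13A, G14C, G18C, G19U and A20C. The GC content was 45.5% for miR-30a-5p, 40.9% for miR-30e and miR-30b, 50% for miR-30d and 43.5% for miR-30c. miR-30a-3p, the opposite strand of the miR-30a precursor, has an unrelated seed. A single base separates miR-30a-5p from miR-30d and miR-30e, and no source used here gives how the authors assigned reads with mismatches.

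All counts of a library added up to 22538325 for orphan, 5188106 for non-sibling and 865654 for sibling. These sums, on which the scaling also rests, run over entries of all species. The same reads recur there under several names, so a read can count more than once. Xenopus entries alone held 4498417, 1035798 and 185455 counts in the same order. The sibling library stood apart in depth. Over all entries, orphan had 26.0 times as many counts and non-sibling 5.99 times as many. Orphan over non-sibling is the comparison that does not use the sibling library. A floor of 3 counts corresponded to 0.142, 0.445 and 4.23 scaled CPM in the orphan, non-sibling and sibling libraries. Scaled CPM are counts put on a common library size with TMM (trimmed mean of M values) factors. The intervals given are 95% intervals that cover counting error only. They take reads as independent, and amplified reads are not independent molecules, so they can be too narrow even for counting error. All members were far above the floor. The lowest count was 37, of miR-30a-3p in the sibling library.

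The neuronal microRNAs were present in all libraries, with 7 of 7 listed Xenopus entries of miR-9, miR-124, miR-128 and miR-137 detected. Detected means any count here, and miR-137 had 2 counts in the sibling library, below the floor. The list leaves out xtr-miR-9a-5p, which has the same log2 ratios as xtr-miR-9-5p. The summed level of the 7 entries was 9239.8 scaled CPM in the orphan library, 10314 in the non-sibling library and 5329 in the sibling library. Most of it was miR-9-5p, with 6657, 8197 and 4013, and miR-9a-3p, with 48.0, 56.9 and 18.3, had the same order. The other entries of the list were highest in the orphan library, such as miR-128 with 1838, 1572 and 1011. Every entry of the list was lowest in the sibling library. Other neuron microRNAs, looked up after these values were seen, differed. miR-132 and miR-138 had the order of the sum. Their log2 ratios were 0.40 and 1.44 in orphan over sibling, and 0.68 and 1.63 in non-sibling over sibling. miR-7, miR-135 and miR-212 were lowest in the sibling library but highest in the orphan library. miR-129, miR-218 and miR-153 did not have the order of the sum. miR-129 had 149, 219 and 252 scaled CPM and miR-218 had 78.8, 92.0 and 78.9 in the orphan, non-sibling and sibling libraries, while miR-153 had 69, 8 and 3 counts. miR-204, a microRNA of eye and choroid plexus epithelium, had 13308 and 9639 scaled CPM in the orphan and non-sibling libraries, against 21959 in the sibling library. The gut and kidney epithelium list (miR-192, miR-194 and miR-215, 3 of 3 entries detected) summed to 460.4, 1311 and 1323 scaled CPM in the orphan, non-sibling and sibling libraries. The sums in the same order were 4785, 2726 and 4426 for muscle (7 of 7 entries), 3022, 4268 and 4145 for skin epithelium (3 of 3), 89.0, 388 and 207 for ciliated cells (5 of 5), and 18.9, 32.2 and 8.45 for red blood cells (2 of 2). Skin entries differed, with 482, 1081 and 486 for miR-203 and 2536, 3181 and 3647 for miR-205a. miR-205b was also highest in sibling. In muscle, miR-133a (2742, 1336 and 2169) and miR-1a were higher in orphan than in sibling. So was miR-1b, but on 1 count in the sibling library, below the floor. miR-133b, miR-133c, miR-133d and miR-206 were lower in orphan than in sibling. The red blood cell sum in sibling rests on 3 counts each of miR-451 and miR-144, at the floor. miR-451 had 18.5, 31.8 and 4.23 scaled CPM in the orphan, non-sibling and sibling libraries, and miR-144 had 0.472, 0.445 and 4.23. Leaving red blood cells aside, the libraries differed in microRNAs of several cell types. The part of these differences in the miR-30 values was not tested. In dissected tissue, fewer cells of a type and less RNA per cell cannot be told apart.

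In unscaled counts the summed 5p members made up a similar part of each library, while their proportions differed. The sums were 213346 counts in the orphan library, 45759 in the non-sibling library and 6888 in the sibling library, which is 4.74%, 4.42% and 3.71% of all counts on Xenopus entries. On the scaled level the order of libraries was another, with 10079 CPM in the orphan library, 6793 CPM in the non-sibling library and 9702 CPM in the sibling library. The ratio of sums was 1.04 for orphan over sibling (1.01 to 1.06), 0.700 for non-sibling over sibling (0.683 to 0.718) and 1.48 for orphan over non-sibling (1.47 to 1.499). Leaving out miR-30c gave 1.38 (1.33 to 1.42), 0.961 (0.931 to 0.993) and 1.43 (1.41 to 1.45), so that non-sibling over sibling came close to 1. Against sibling, the direction of the family sum depended on the scaling. Non-sibling over sibling was 1.11 with total counts and 1.05 with the authors' quantile-normalized values. Orphan over sibling was 0.942 with TMM factors from Xenopus entries alone. Orphan over non-sibling was above 1 under each scaling, from 1.07 with the quantile-normalized values to 1.76 with the upper quartile.

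**Figure D1:**
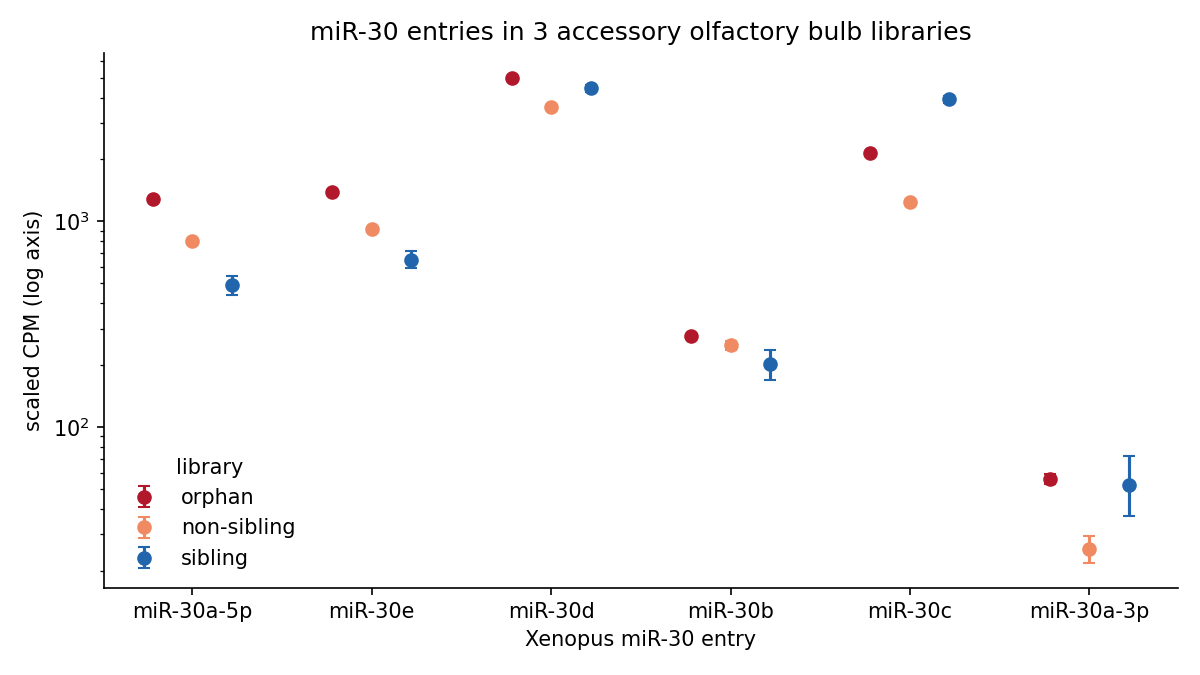
Level of each Xenopus miR-30 entry in scaled CPM (log axis) in the orphan, non-sibling and sibling libraries, 1 library each; bars are exact 95% Poisson intervals, which cover counting error only. miR-30a-5p and miR-30e were lowest in the sibling library, at 489 and 652, whereas miR-30c was highest there, at 3929.

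Within every library the order of the members was the same. miR-30d had most counts, followed by miR-30c, miR-30e, miR-30a-5p, miR-30b and miR-30a-3p, and no neighbours in that order had overlapping counting intervals in any library. All are listed as 22 or 23 bases long. Ranked among the 170 distinct Xenopus sequences of the table, miR-30d was at place 14 in the orphan library, 11 in the non-sibling library and 12 in the sibling library. miR-30a-5p was at places 27, 32 and 43, and miR-30c at places 21, 26 and 16, in the same order of libraries. miR-30a-5p thus stood furthest down, and miR-30c furthest up, in the sibling library.

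miR-30a-5p had 27323 counts in the orphan library, 5386 in the non-sibling library and 347 in the sibling library. Its level was 1291 scaled CPM in the orphan library, 799.6 in the non-sibling library and 489 in the sibling library. The 3 counting intervals did not overlap. The ratio was 2.64 for orphan over sibling (2.38 to 2.94), 1.64 for non-sibling over sibling (1.47 to 1.83) and 1.61 for orphan over non-sibling (1.57 to 1.66).

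miR-30e, which differs from miR-30a-5p by a single base, had the same order of libraries. It had 29265, 6161 and 463 counts, or 1383, 915 and 652 scaled CPM, in the orphan, non-sibling and sibling libraries. Its ratios were 2.12 for orphan over sibling (1.93 to 2.33), 1.40 for non-sibling over sibling (1.28 to 1.54) and 1.51 for orphan over non-sibling (1.47 to 1.55).

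miR-30c was the member that was highest in the sibling library. It had 45291 counts in the orphan library, 8367 in the non-sibling library and 2789 in the sibling library, or 2140 scaled CPM, 1242 and 3929. Orphan over sibling gave 0.545 (0.524 to 0.566), and non-sibling over sibling gave 0.316 (0.303 to 0.330). Between the deeper libraries the ratio was 1.72 for orphan over non-sibling (1.68 to 1.76). Mature miR-30c can be made from more than 1 precursor gene in vertebrates, and the entry, listed under the precursor xtr-mir-30c-1, does not tell them apart.

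miR-30b shares its first 18 bases with miR-30c, yet it was not highest in the sibling library. It had 5846, 1679 and 143 counts, or 276, 249 and 201 scaled CPM, in the orphan, non-sibling and sibling libraries. Orphan over sibling was 1.37 (1.16 to 1.63), non-sibling over sibling 1.24 (1.04 to 1.48) and orphan over non-sibling 1.11 (1.05 to 1.17). That last ratio turned to a log2 value of -0.32 under scaling by total counts.

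miR-30d was the most abundant member and had levels of similar size in the 3 libraries. It had 105621, 24166 and 3146 counts, or 4989.7, 3588 and 4431 scaled CPM, in the orphan, non-sibling and sibling libraries. The ratio for orphan over sibling was 1.13 (1.09 to 1.17), that for non-sibling over sibling 0.810 (0.780 to 0.841) and that for orphan over non-sibling 1.39 (1.37 to 1.41). Each of these directions turned under the authors' quantile normalization, with log2 ratios of -0.03, 0.28 and -0.31, so no direction is given for miR-30d.

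**Figure D2:**
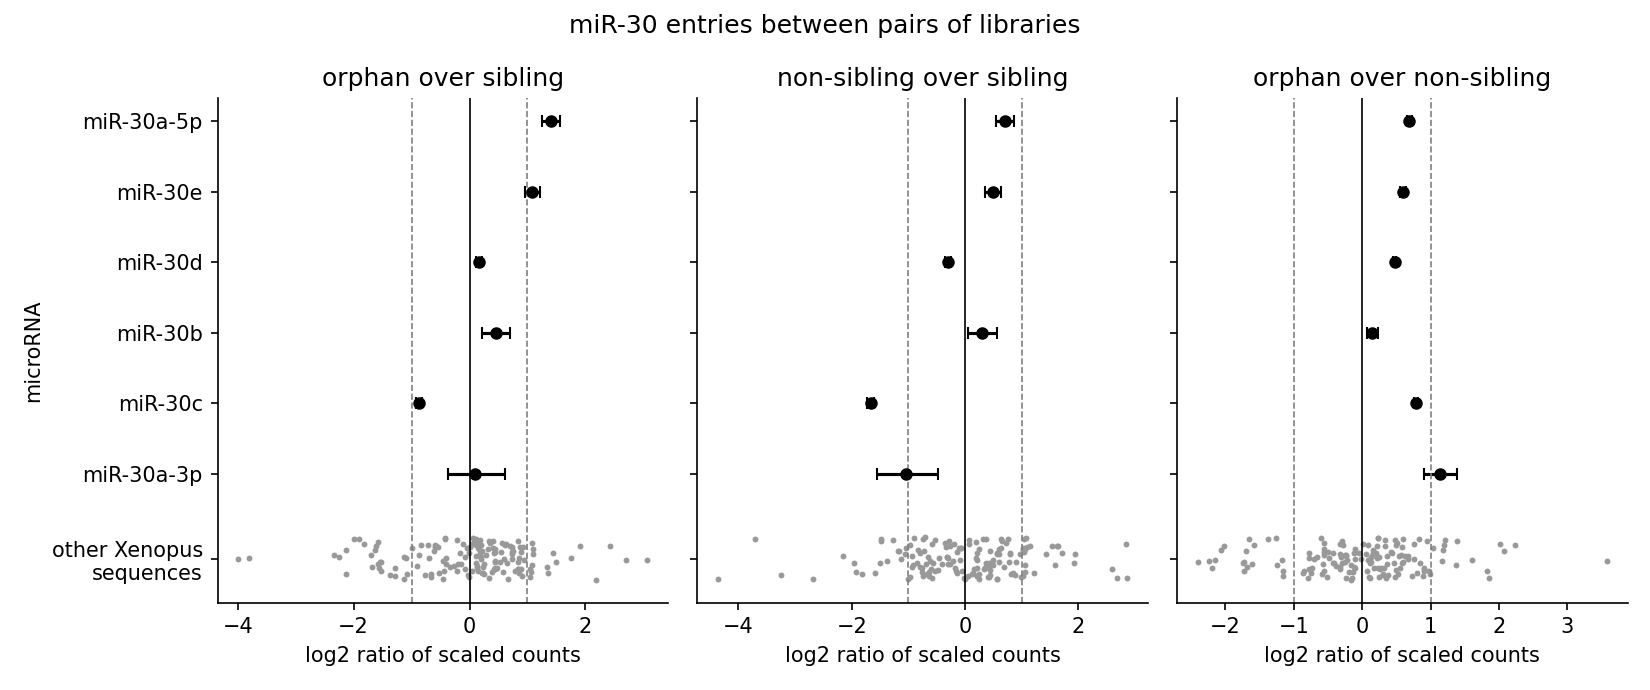
Log2 ratio of scaled counts of each Xenopus miR-30 entry between pairs of libraries (black points with exact conditional 95% counting intervals), above the log2 ratios of the other distinct Xenopus sequences with enough counts (grey points, spread vertically for visibility); dashed lines mark 2-fold. Against sibling, miR-30a-5p lay at 1.40 in orphan and 0.71 in non-sibling, and miR-30c at -0.88 and -1.66.

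Entries were called higher at a ratio of at least 2, or lower at a ratio of at most 0.5, where the counting interval excluded 1, and all 6 members passed the minimum of 30 counts over the libraries. In orphan over sibling 2 of 6 members, miR-30a-5p and miR-30e, were higher and 0 were lower, where 9.62% of the 156 distinct Xenopus sequences with enough counts were higher and 13.5% were lower. Over all species, where the same reads recur under several names, 9.47% of 866 entries passed as higher and 15.4% as lower. The call of miR-30e was lost with TMM factors from Xenopus entries alone, which called miR-30c lower, and with a GC and length trend removed. miR-30e lay just inside the 2-fold size and miR-30c, at 0.545, just outside it. Since this contrast chose the family, nothing is read from the count. The median log2 ratio was 0.31 over the 6 members and 0.16 over the 156 Xenopus sequences.

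In non-sibling over sibling 0 of 6 members were higher and 2 were lower, miR-30c and miR-30a-3p, where 14.1% of the Xenopus sequences were higher and 10.9% were lower. Of all entries 11.1% were higher and 12.2% lower, and, as above, nothing is read from the members' count. The median log2 ratio was -0.0010 over the members and 0.07 over the Xenopus sequences. miR-30c lay above 5.13% of those sequences in this comparison, and miR-30a-5p above 76.9% of them. DESeq2 size factors ended the call of miR-30a-3p. Scaling by total counts gave miR-30c a log2 ratio of -0.999 at a ratio just above 0.5, and 2 higher and 0 lower members.

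In orphan over non-sibling all 6 members had ratios above 1 with TMM scaling, though not under every alternative for miR-30b and miR-30d, between 1.11 for miR-30b and 2.20 for miR-30a-3p. The call rule was met by 1 of 6 members, miR-30a-3p, against 9.62% of the Xenopus sequences called higher, and 0 were lower, against 12.8%. Of all entries 9.12% were higher and 11.5% lower. The median log2 ratio was 0.64 over the members and 0.11 over the Xenopus sequences, so most of those sequences also had ratios above 1. Scaling by total counts moved the median of all entries by -0.47, left 0 members called and put miR-30b at -0.32. The comparisons with sibling share that library, and this one shares a library with each of them, so the 3 are not independent.

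The authors' deposited table holds log2 ratios of quantile-normalized counts with an unstated offset, and there too miR-30a-5p and miR-30c stood on opposite sides of the sibling library. For non-sibling over sibling the authors' deposited table lists a log2 ratio of 0.87 for miR-30a-5p, 0.77 for miR-30e, 0.37 for miR-30b, 0.28 for miR-30d, -0.82 for miR-30a-3p and -1.08 for miR-30c. The authors' deposited table gives the orphan comparison as sibling over orphan, where a negative value means higher in the orphan library, and lists -1.46 for miR-30a-5p, -1.29 for miR-30e, -0.62 for miR-30b, -0.17 for miR-30a-3p, 0.03 for miR-30d and 0.40 for miR-30c. The order of the 5p members was thus the same as with scaled counts in both comparisons with sibling, except that miR-30b and miR-30d lay closer together in non-sibling over sibling.

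Shares within a library need no scaling between libraries. They restate the shift in the same counts that chose the family, and are no separate evidence. Of the 5p counts, miR-30c made up 21.2% in orphan (21.1 to 21.4%, exact binomial interval), 18.3% in non-sibling (17.9 to 18.6%) and 40.5% in sibling (39.3 to 41.7%). miR-30a-5p made up 12.8% in orphan (12.7 to 12.9%), 11.8% in non-sibling (11.5 to 12.1%) and 5.04% in sibling (4.53 to 5.58%). miR-30e made up 13.7%, 13.5% and 6.72%, miR-30d 49.5%, 52.8% and 45.7%, and miR-30b 2.74%, 3.67% and 2.08% in the orphan, non-sibling and sibling libraries. In raw counts the shares in orphan and non-sibling lay close to each other, and the sibling library, the shallowest, had more miR-30c and less miR-30a-5p and miR-30e. With the authors' quantile-normalized values the shares of orphan and non-sibling lay further apart, at 21.2% and 14.0% for miR-30c, 47.7% and 63.0% for miR-30d and 13.6% and 9.62% for miR-30a-5p, while sibling still had the most miR-30c (31.3%) and the least miR-30a-5p (5.47%).

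**Figure D3:**
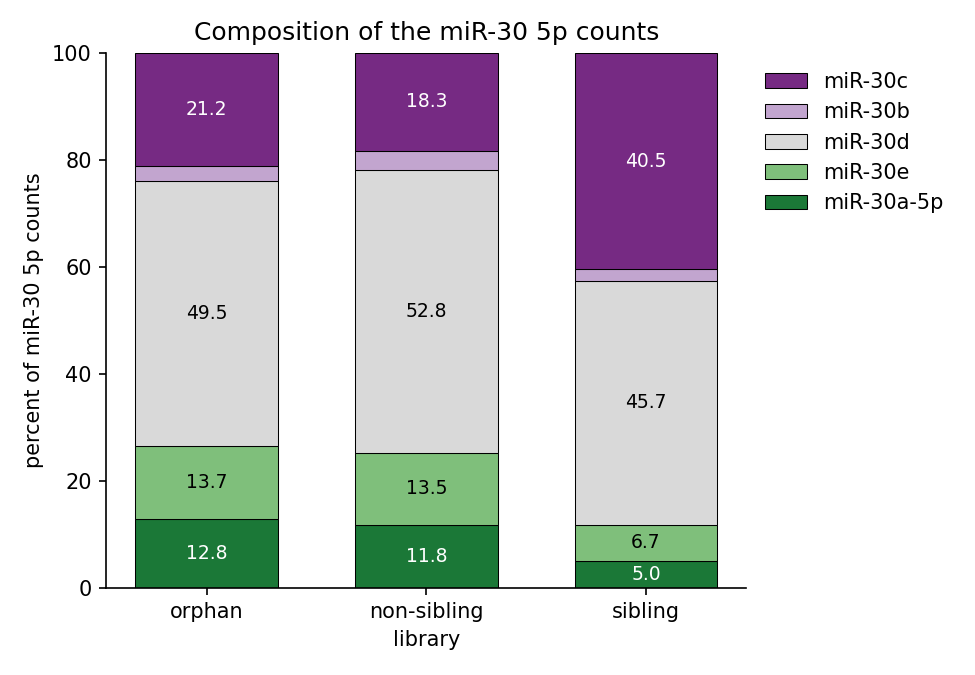
Share of each member in the summed counts of the 5 Xenopus miR-30 5p entries (percent, y axis) in the orphan, non-sibling and sibling libraries. The miR-30c share was 21.2%, 18.3% and 40.5%, and the combined green part (miR-30a-5p and miR-30e) was smallest in the sibling library.

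The balance of miR-30c against each paralog gave the size of the shift. There were 1.66 miR-30c counts for each miR-30a-5p count in orphan (1.63 to 1.68) and 1.55 in non-sibling (1.501 to 1.61), against 8.04 in the sibling library (7.19 to 9.01). The balance in orphan was 0.206 times that in sibling (0.184 to 0.231), the balance in non-sibling was 0.193 times that in sibling (0.172 to 0.217), and the balance in orphan was 1.07 times that in non-sibling (1.03 to 1.11). Against miR-30e, the neighbour of a miR-30c gene in mammals, miR-30c had 1.55, 1.36 and 6.02 counts per count in the orphan, non-sibling and sibling libraries. Against miR-30d it had 0.429, 0.346 and 0.887, and against miR-30b 7.75, 4.98 and 19.5. The balance in orphan was 1.14 times that in non-sibling against miR-30e, 1.24 times against miR-30d and 1.55 times against miR-30b. All 4 balances were highest in the sibling library and lowest in the non-sibling library.

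The balance of miR-30e to miR-30a-5p differed less between libraries than that of miR-30c to any other 5p member did against sibling. There were 1.07 miR-30e counts per miR-30a-5p count in the orphan library (1.05 to 1.09), 1.14 in the non-sibling library (1.10 to 1.19) and 1.33 in the sibling library (1.16 to 1.54). The balance of miR-30e to miR-30a-5p in orphan was 0.803 times that in sibling (0.698 to 0.923), and in non-sibling it was 0.857 times that in sibling (0.742 to 0.99). Among the pairs given here, the difference of a balance between libraries did not follow the number of differing bases. A part of read assignment in these values was not tested. miR-30b and miR-30c differ by 4 bases. The balance of miR-30b to miR-30c in orphan was 2.52 times that in sibling (2.12 to 2.98), and in non-sibling 3.91 times (3.28 to 4.67). miR-30b and miR-30d differ by 8 bases. The balance of miR-30b to miR-30d in orphan was 1.22 times that in sibling (1.03 to 1.44), and in non-sibling 1.53 times (1.28 to 1.82). miR-30e and miR-30b differ by 7 bases. The balance of miR-30e to miR-30b in orphan was 1.55 times that in sibling (1.28 to 1.87), and in non-sibling 1.13 times (0.932 to 1.38). miR-30d differs from miR-30a-5p by a single base, as miR-30e does. The balance of miR-30a-5p to miR-30d in orphan was 2.35 times that in sibling (2.10 to 2.62), and in non-sibling it was 2.02 times that in sibling (1.80 to 2.27).

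The miR-30a precursor is the only member precursor with both arms among the Xenopus entries. miR-30a-3p had 1184, 171 and 37 counts, or 55.9, 25.4 and 52.1 scaled CPM, in the orphan, non-sibling and sibling libraries. It was 1.07 times as high in orphan as in sibling (0.774 to 1.53), an interval that includes 1, and 0.487 times as high in non-sibling as in sibling (0.340 to 0.715). In orphan it was 2.20 times as high as in non-sibling (1.88 to 2.60). The 3p arm made up 4.15% of both arms in the orphan library (3.92 to 4.39%), 3.08% in the non-sibling library (2.64 to 3.57%) and 9.64% in the sibling library (6.88 to 13.0%). The 5p arm led in each library, with 23.1, 31.5 and 9.38 counts of miR-30a-5p for each count of miR-30a-3p, and the arms were least unequal in the sibling library. These arm values contain the miR-30a-5p counts that chose the family, so against sibling they are no separate evidence.

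**Figure D4:**
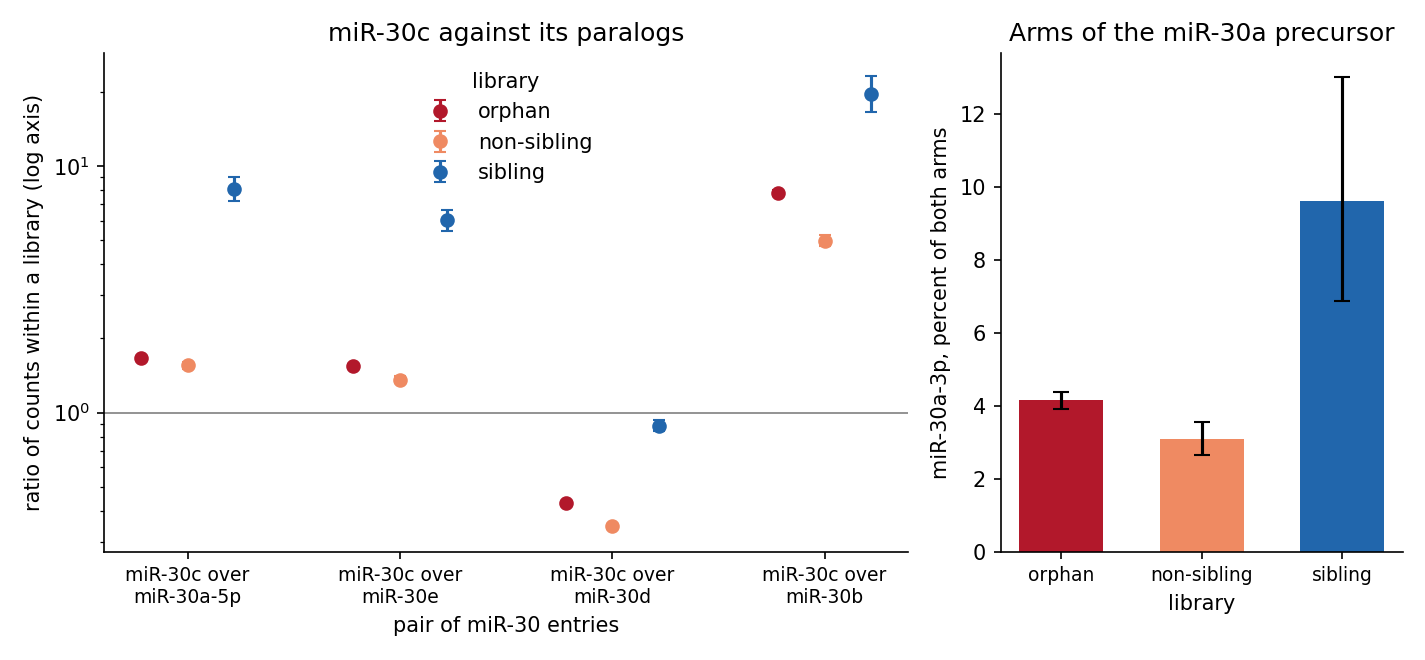
Left, counts of miR-30c for each count of another 5p member within a library (log axis); right, miR-30a-3p as percent of the counts of both miR-30a arms; libraries are orphan, non-sibling and sibling, and bars are exact 95% counting intervals. The sibling library had the highest value in each of the 5 comparisons shown, such as 8.04 for miR-30c over miR-30a-5p and 9.64% for the 3p arm. All use the miR-30c or miR-30a-5p counts that chose the family, so they are no separate evidence.

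The same reads were listed again under names of other species. In all, 31 entries had the miR-30 5p seed, all of them named miR-30, and 26 of these were of other species. Of those 26, 17 carried a member's bases with the same, a shorter or a longer 3′ end, and 8 had counts identical to a member in every library. The entry tgu-miR-30a-5p, which has the bases of miR-30e with a longer end, had 29342, 6180 and 461 counts in the orphan, non-sibling and sibling libraries, close to those of xtr-miR-30e. The 6 entries with the bases of miR-30e were from 19 to 25 bases long, and their counts differed by at most 0.535% in the orphan library, 0.583% in the non-sibling library and 1.30% in the sibling library. Entries of 1 sequence did not always have 1 count, since aca-miR-30b-5p, identical in sequence to xtr-miR-30b, had 5744, 1652 and 135 counts against 5846, 1679 and 143.

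Among other-species entries whose sequence equals that of no Xenopus entry, those with most counts were 2 longer forms of miR-30d and a shorter form of miR-30c. The form cfa-miR-30d had 106811, 24414 and 3182 counts, ccr-miR-30d had 105621, 24166 and 3146, and dre-miR-30c had 45233, 8368 and 2784 in the orphan, non-sibling and sibling libraries. Their ratios of orphan over sibling were 1.13, 1.13 and 0.545, as for the Xenopus entries that share their bases.

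The Xenopus microRNAs whose pattern was nearest to the summed miR-30 5p counts were found by the distance between pairs of log2 ratios over sibling, among 132 sequences outside the family with at least 150 counts, over 3 libraries. The family sum was at 0.05 in orphan over sibling and -0.51 in non-sibling over sibling. Nearest were xtr-miR-24a-5p (0.06 and -0.53, distance 0.02, on 4 sibling counts), xtr-miR-99 (0.01 and -0.52, distance 0.04) and xtr-miR-148b (0.11 and -0.47, distance 0.07). At 4 counts, the place of xtr-miR-24a-5p depends on the 0.5 added to each count, which was not added to the family sum. xtr-miR-133c, of a muscle family, followed at -0.07 and -0.60 (distance 0.15), and xtr-miR-181a-5p at 0.17 and -0.33 (distance 0.22). With 3 libraries such likeness is a description of a position and carries no test.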

How the data were processed

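Small RNA of 3 libraries was analysed, grouped by their titles. Per the file headers, the deposited values are a raw read count per entry and library, a signal that the authors obtained by quantile normalization of the counts, and the authors' log2 ratio of that signal for each pair of libraries. No source used here names the aligner, counting tool, microRNA release or build. The labels' protocol names a messenger RNA kit although the samples are described as microRNA, so the library method is unsettled. No genome was used. The 1 line without a name was left out.

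Effective library sizes came from TMM over all named entries (edgeR 4.0.16, R 4.3.3), with factors 0.939 for orphan, 1.30 for non-sibling and 0.820 for sibling. Ratios have exact conditional 95% intervals (Clopper-Pearson), and balances between libraries have intervals of a sample odds ratio. Log2 ratios of entries have 0.5 added to each count, and those of the family sum have nothing added. Without replicates no test was made. Software was Python 3.11.15 with scipy 1.17.1, numpy 2.4.6, matplotlib 3.10.9 and pandas 2.3.3. Calculations were tested on simulated data. Alternatives included DESeq2 1.42.0 size factors. The members, lists and rules were chosen with earlier results of these data known. Named were all members, the 3 most counted entries of other species that have the seed and equal no Xenopus sequence, and the 5 nearest Xenopus patterns.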

Additional observations from a re-analysis of the deposited data

How the results depend on the processing

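No paired analysis was possible because each condition has 1 library. miR-30a-5p was above and miR-30c below the sibling library under all 11 alternatives, 9 planned and 2 chosen after seeing the data (a GC and length trend removed, and TMM over entries with enough counts). Dropping the filter, the 1.5-fold rule and the use of distinct sequences could not change a member's log2 ratio, so their agreement carries no information. Removing the trend also left the values of miR-30a-5p as they were. Log2 ratios ranged from 1.26 to 1.59 for miR-30a-5p and from -1.02 to -0.40 for miR-30c in orphan over sibling, and from 0.46 to 1.37 and from -1.91 to -0.999 in non-sibling over sibling. Calls of members moved under 6 alternatives. TMM over Xenopus entries gave 1 higher and 1 lower member in orphan over sibling, since miR-30e lost and miR-30c gained its call. The removed trend gave 1 higher there. Total counts gave 2 higher and 0 lower in non-sibling over sibling and 0 higher in orphan over non-sibling. DESeq2 size factors gave 1 lower in non-sibling over sibling. The upper quartile gave 2 higher in orphan over non-sibling. A 1.5-fold rule gave 1 lower in orphan over sibling, 1 higher in non-sibling over sibling and 4 higher in orphan over non-sibling. Under total counts the median of all entries shifted by 0.20, 0.66 and -0.47 (log2) in orphan over sibling, non-sibling over sibling and orphan over non-sibling. The miR-30c share became 14.0% in non-sibling and 31.3% in sibling with the authors' quantile-normalized values, and 23.9%, 21.0% and 45.1% in orphan, non-sibling and sibling over all entries with the seed. The miR-30a-3p share became 2.62% in non-sibling with the quantile-normalized values. Beyond the settings' own construction, the cause was not tested. Depth limits the sibling values most, where miR-30a-3p had 37 counts.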

Other observations

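An end variant of miR-30c was chosen for description after its values were seen. The entry fru-miR-30c, uGUAAACAuccuacacucucgg, differs from xtr-miR-30c by A21G, counted from the 5′ end. It had 1766 counts in the orphan library, 676 in the non-sibling library and 182 in the sibling library, or 83.4, 100.4 and 256 scaled CPM. Its ratio was 0.325 for orphan over sibling (0.279 to 0.381) and 0.391 for non-sibling over sibling (0.332 to 0.464), so like miR-30c it was highest in the sibling library. Unlike xtr-miR-30c, which had 1.72 in orphan over non-sibling, it was lower in orphan there, at 0.831 (0.760 to 0.910). As a share of both entries fru-miR-30c was 3.75% in the orphan library (3.58 to 3.93%), 7.48% in the non-sibling library (6.94 to 8.04%) and 6.13% in the sibling library (5.29 to 7.05%).

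Most other members of the family known from other animals were scarcely counted. Of the 9 other-species entries with the seed and bases of their own, 7 had between 1 and 61 counts in all libraries together. The lamprey entry pma-miR-30c-5p had 289, 149 and 7 counts in the orphan, non-sibling and sibling libraries. Its sequence, uGUAAACAuccucgacugaaagcu, differs from xtr-miR-30a-5p by G19A, which puts its bases nearer to miR-30a-5p than to the miR-30c it is named for.

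Entries named for the 3p arm of miR-30d were of other species only, and their link to miR-30d rests on the name. The hamster entry cgr-miR-30d, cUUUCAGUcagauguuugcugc, carries the seed of a 3p arm and differs from xtr-miR-30a-3p by A20U. It had 20 counts in the orphan library, 8 in the non-sibling library and 2 in the sibling library. The lamprey entry pma-miR-30c-3p had the same 20, 8 and 2 counts, and ola-miR-30d-3p had 2, 6 and 0. The hamster counts are 0.0189% of the sum with xtr-miR-30d in orphan (0.0116 to 0.0292%), 0.0331% in non-sibling (0.0143 to 0.0652%) and 0.0635% in sibling (0.00769 to 0.229%). The 3p share of miR-30a was far larger in each library, at 4.15%, 3.08% and 9.64%. The X. laevis sequence of the miR-30d 3p arm was not used here.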
